A study of Mus musculus with 12 samples.

Results

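Lung lineage transcription factors were followed in RNA of sorted cancer cells from lung tumours of mice. The 9 members were taken by gene symbol from a table of 30743 symbols and 12 libraries: Nkx2-1, Foxa1, Foxa2, Foxp1, Foxp2, Gata6, Cebpa, Hnf4a and Sox2. All 9 were in the table. Of these, 8 passed the filter on low counts in the fit by genotype, and Sox2 did not. The 3 KT;Lkb1f/f libraries (called Lkb1-deleted) carry floxed alleles of Lkb1, the kinase encoded by Stk11. The 5 KT;H11LSL-Cas9_sgSik libraries (called Sik-targeted) carry a Cre-dependent Cas9 allele and guides against Sik genes, and their titles divide them into sgSik1 (3 libraries) and sgSik1-3 (2 libraries). The 4 KT libraries are the controls, and KT is the background that every group shares. The labels do not spell out its alleles. KT controls carry neither the Cas9 allele nor a guide in their label, so the effect of a Sik guide and that of Cas9 or of guide delivery cannot be told apart. All mice were mixed BL6/129, with no age given in the sources used here. Whether the libraries of a group came from separate animals was not settled from the labels, so the spread behind each p-value may be partly technical.

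Nkx2-1 is a homeodomain factor required for lung development and for the identity of alveolar cells, where it works with the forkhead factors Foxa1 and Foxa2, with Gata6 and with Cebpa to activate surfactant genes. Foxp1 and Foxp2 are forkhead repressors of the developing and adult airway and alveolus. Hnf4a is a nuclear receptor of liver, gut and stomach epithelium that is normally low in lung, and Sox2 is the factor of the conducting airway. In mouse lung adenocarcinoma, loss of Nkx2-1 is known to let Foxa1 and Foxa2 turn on a gastric programme that includes Hnf4a. Lkb1 activates the kinases encoded by Sik1, Sik2 and Sik3, which hold back CRTC coactivators of the factor CREB.

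With library sizes scaled as described below, Hnf4a, Foxp1 and Foxa1 rose against KT in Sik-targeted tumour cells. Nkx2-1 showed no detected change there. The calls of Hnf4a and Foxa1 were lost on leaving out any 1 KT library, whereas that of Foxp1 held. All 3 calls were lost without KT replicates 2 and 3 together. None of the 8 tested members passed the test in Lkb1-deleted cells, in which 1 of 3 libraries had as much Hnf4a as the Sik-targeted libraries and the other two had as little as KT. Foxp2 was lower in every Sik-targeted library than in every KT library. This change did not pass the adjusted threshold in edgeR's fit by genotype or with DESeq2. It passed in 6 of 20 alternative analyses, among them limma-voom and a fit without a low-count filter, whose limit is given below. Sox2 was near the detection limit everywhere and nearly all of its counts were in KT libraries.

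The promoter windows of the 3 members that rose with Sik targeting are shown because these are the stretches from which their transcripts start. Each covers 300 bases across an annotated start, most of them upstream, in the RefSeq table of build GRCm38.p6, written 5′ to 3′ on the gene's own strand, with matches to the searched motifs in capitals.
Hnf4a chr2:163506607-163506906 (plus strand): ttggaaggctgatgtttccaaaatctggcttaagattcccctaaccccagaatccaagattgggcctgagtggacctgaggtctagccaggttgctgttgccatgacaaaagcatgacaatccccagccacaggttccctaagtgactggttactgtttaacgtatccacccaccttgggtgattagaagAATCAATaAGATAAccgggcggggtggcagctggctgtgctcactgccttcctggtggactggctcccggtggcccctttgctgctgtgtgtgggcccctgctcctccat
Hnf4a chr2:163546905-163547204 (plus strand): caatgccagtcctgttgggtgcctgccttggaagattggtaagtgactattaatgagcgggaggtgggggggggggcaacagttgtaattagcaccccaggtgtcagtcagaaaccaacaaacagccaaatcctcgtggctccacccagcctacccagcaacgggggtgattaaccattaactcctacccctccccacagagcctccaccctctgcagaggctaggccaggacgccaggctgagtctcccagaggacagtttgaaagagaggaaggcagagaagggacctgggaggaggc
Foxa1 chr12:57546062-57546361 (minus strand): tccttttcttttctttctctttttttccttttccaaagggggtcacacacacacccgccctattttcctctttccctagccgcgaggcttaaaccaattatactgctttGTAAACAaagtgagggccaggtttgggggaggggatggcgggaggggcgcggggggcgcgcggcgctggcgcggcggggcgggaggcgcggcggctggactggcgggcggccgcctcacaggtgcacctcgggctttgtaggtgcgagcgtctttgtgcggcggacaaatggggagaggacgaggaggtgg
Foxp1 chr6:99028249-99028548 (minus strand): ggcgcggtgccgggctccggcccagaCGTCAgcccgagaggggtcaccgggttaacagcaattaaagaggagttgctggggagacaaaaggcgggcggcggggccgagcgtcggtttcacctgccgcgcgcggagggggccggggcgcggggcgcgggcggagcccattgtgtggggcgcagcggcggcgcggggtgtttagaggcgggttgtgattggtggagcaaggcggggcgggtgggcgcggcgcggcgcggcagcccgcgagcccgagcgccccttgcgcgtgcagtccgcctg
The first Hnf4a window is at the upstream start of the gene and the second at a start inside the gene's span. Counts per gene do not tell which start was used. For Foxp1 the window shown is 1 of its 3 in the table, the one with a match.

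The 7 motifs searched on both strands were the full CREB site TGACGTCA, its core TGACG, the forkhead site TGTTTAC, the HNF1 site (a palindrome given here by name), the HNF4 site CAAAGTCCA, the ONECUT site ATTGATT and the GATA site AGATAA. The core lies within the full CREB site. Positions are counted from 1 at the 5′ end of a window. The upstream Hnf4a window held ATTGATT at 191 to 197 on the opposite strand and AGATAA at 199 to 204. Its downstream window held none of the 7. Foxa1 held the forkhead letters at 110 to 116 on the opposite strand, and Foxp1 held TGACG at 27 to 31 on the opposite strand. Members without a call held some of the same letters. Nkx2-1 held TGACG at 270 to 274, and Foxa2 held it at 252 to 256 of its first window. Foxa2 also held ATTGATT at 38 to 44 of that window and AGATAA at 68 to 73 of another. Over all 32851 mouse promoter windows of this length, TGTTTAC was present in 3.65%, ATTGATT in 2.86%, AGATAA in 11.2% and TGACG in 20.8%. The full CREB site was present in 1.79%, the HNF4 site in 0.475% and the HNF1 site in 0.00913%, and no window of the 7 members scanned held any of these. A match is a description of the letters and is no evidence of binding.

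Total counts per library were 6427769 to 9460177 in Lkb1-deleted, 5666378 to 13955181 in Sik-targeted and 3847760 to 8101304 in KT. Levels are CPM, counts divided by a library size that was scaled by the trimmed mean of M values (TMM). The scaled size was above the total in every KT library (KT replicate 1: 6355560 against 3847760). It was below the total in every Sik-targeted library (sgSik1-3 replicate 1: 4232910 against 5666378) except sgSik1 replicate 3 (18320800 against 13955181). Every alternative fit also scaled library sizes, so how the changes depend on scaling was not tested. Stk11 stood at 11.9 ± 4.05 CPM (SD, n = 3) in Lkb1-deleted and 38.9 ± 5.78 CPM (SD, n = 4) in KT libraries. Sik3 stood at 14.4 ± 6.16 CPM in Sik-targeted (SD, n = 5) and 36.0 ± 8.79 CPM in KT. By title it stood at 17.0 ± 6.82 CPM in sgSik1 (n = 3) and 10.3 ± 2.27 CPM in sgSik1-3 (n = 2). Sik1 stood at 229 ± 172 CPM in Sik-targeted, 175 ± 34.6 CPM in Lkb1-deleted and 48.6 ± 8.75 CPM in KT libraries. Sik2 stood at 18.4 ± 5.82, 22.9 ± 7.76 and 7.86 ± 2.35 CPM in the same groups. Both were thus also higher in Lkb1-deleted libraries, whose titles name no guide, and the cause was not tested. An indel made by Cas9 need not lower RNA. KT replicates 2 and 3 stood apart: 23582 and 23747 genes were detected there, and 14283 to 16533 in each of the rest. They had counts in 998 and 1063 olfactory and vomeronasal receptor genes, against 14 to 58 elsewhere. The 4 most abundant transcripts took 74.2% of the counts of sgSik1 replicate 1, against 27.5% to 65.2% in the others.

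The 10 epithelial markers, among them Epcam, Cdh1 and keratins, had counts in every library. They summed to 1660 to 2937 CPM in Lkb1-deleted, 2043 to 6147 CPM in Sik-targeted and 1086 to 1537 CPM in KT libraries. Of these 10, 4 rose with Sik targeting (Krt18, Krt19, Krt7 and Krt8) and 0 with Lkb1 deletion. Over all tested genes, 12.4% passed with Sik targeting and 1.16% with Lkb1 deletion, in either direction. The count of 4 was 1 without KT replicate 2 and 0 without KT replicates 2 and 3 together. Markers of other cells moved with the groups. The 14 macrophage markers summed to 22.7 to 31.2 CPM in Lkb1-deleted, 25.9 to 56.0 CPM in Sik-targeted and 115 to 1150 CPM in KT libraries, although the sort excluded cells with CD45 or F4/80. Of 12 tested, 7 fell in Lkb1-deleted and 8 in Sik-targeted cells against KT, and Tyrobp had 0 counts in every Lkb1-deleted and Sik-targeted library. The 12 club and ciliated markers summed to 32.1 to 46.9 CPM in Lkb1-deleted, 15.6 to 97.1 CPM in Sik-targeted and 408 to 3189 CPM in KT libraries. Of 11 tested, 3 fell in Lkb1-deleted and 11 in Sik-targeted cells, and Bpifa1 had 0 counts in every Sik-targeted library. Leaving out 1 library, the macrophage counts were 2 to 7 and 7 to 10, and the airway counts 0 to 4 and 6 to 11. Leaving out KT replicates 2 and 3 together, they were 1 and 3, and 0 and 4. The 12 fibroblast and smooth muscle markers summed to 4.86 to 424 CPM in Lkb1-deleted, 23.3 to 51.9 CPM in Sik-targeted and 32.3 to 414 CPM in KT libraries. Of 9 tested, 3 fell (Myh11, Col3a1 and Pdgfra) and 1 rose (Tagln) with Sik targeting (median change -2.92), and 0 passed with Lkb1 deletion. The count of 3 became 0 when KT replicate 4, or KT replicates 2 and 3 together, were left out, and 1 when sgSik1 replicate 1 was. It became 6 when Lkb1-deleted replicate 1 was left out and 5 when Lkb1-deleted replicate 2 was. The call of Tagln was lost on leaving out any 1 KT library, sgSik1 replicate 3 or either sgSik1-3 library. Ptprc, which encodes the sort marker CD45, fell in Lkb1-deleted (-6.29, adjusted p 0.0408) and in Sik-targeted cells (-3.46, adjusted p 0.0218). The 10 endothelial markers had 0 calls against KT. The part of these cells in the changes of the members was not tested.

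**Figure D1:**
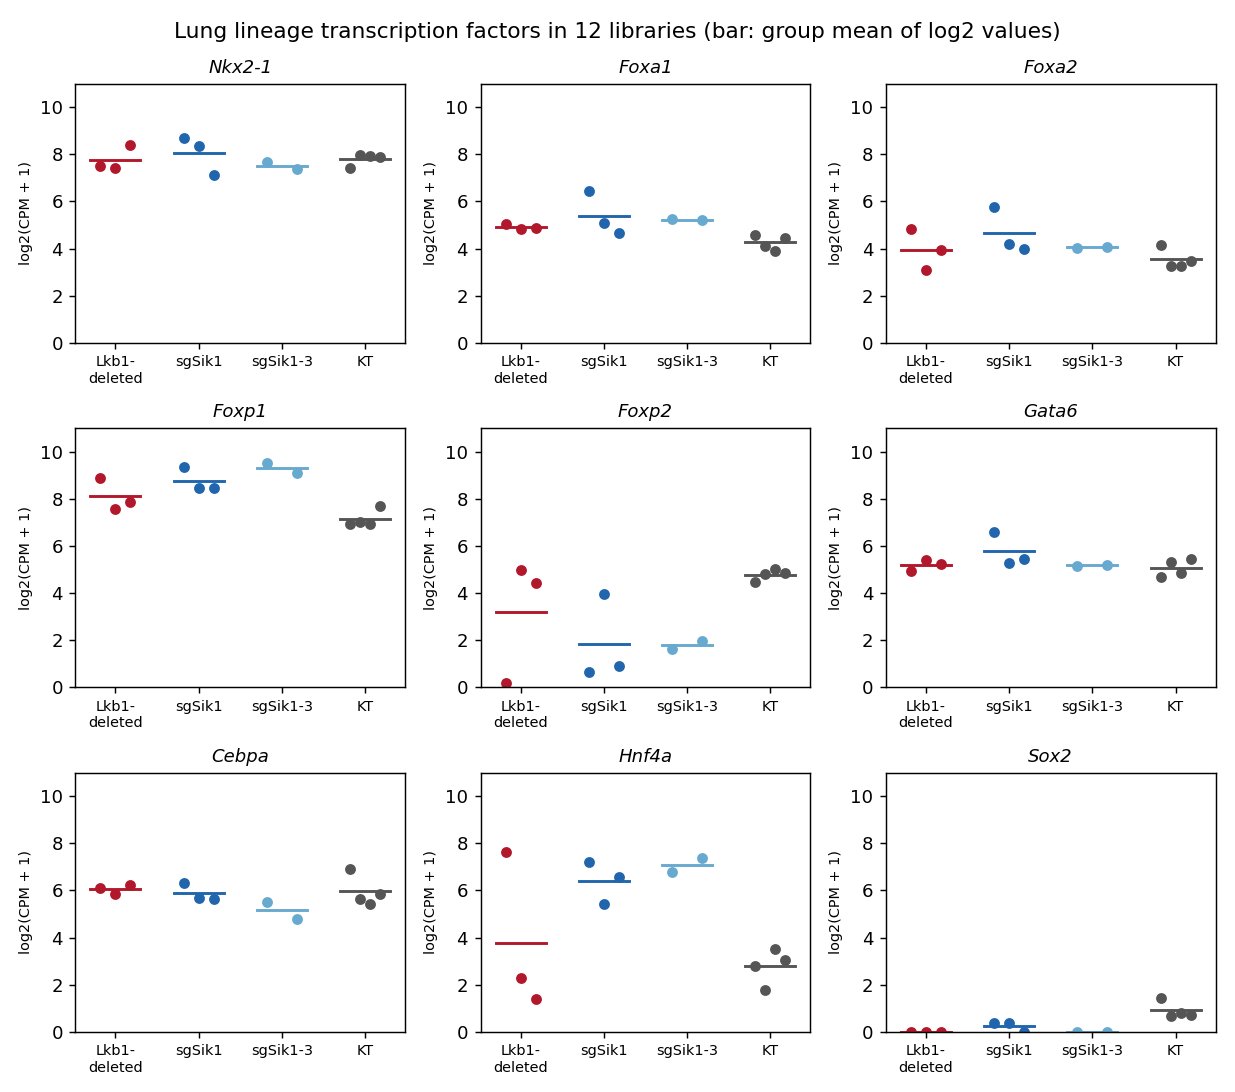
Level of each of the 9 factors in the 12 libraries as log2(CPM + 1), by title group, with a point per library and a bar at the group mean of the log2 values. Nkx2-1 overlapped between all groups, Foxp1 and Hnf4a were higher in all 5 Sik-targeted libraries than in KT, and 1 Lkb1-deleted library stood with the Sik-targeted libraries for Hnf4a and Foxp2.

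Per kilobase of exon, Nkx2-1 was the most abundant member in every library, at 82.6 ± 29.0 CPM per kb (SD, n = 12). In Sik-targeted libraries the order was Nkx2-1 at 86.9 ± 40.7, Foxp1 at 38.5 ± 12.7, Hnf4a at 23.0 ± 9.96 and Cebpa at 18.9 ± 6.96 CPM per kb (SD, n = 5). Foxa1 averaged 13.0 ± 7.36, Foxa2 9.89 ± 7.22 and Gata6 7.54 ± 3.97 CPM per kb there. Hnf4a and Cebpa overlapped in their spread, and in sgSik1 replicate 2 Hnf4a was below both Cebpa and Foxa1. Foxp2 was at 0.255 ± 0.354 CPM per kb. In KT libraries Nkx2-1 stood at 79.0 ± 12.7 CPM per kb, followed by Cebpa at 25.4 ± 13.6 and Foxp1 at 10.5 ± 2.91 CPM per kb (SD, n = 4). Foxa1 at 5.58 ± 1.25, Gata6 at 5.15 ± 1.29 and Foxa2 at 4.64 ± 1.62 CPM per kb came next and did not differ beyond their spread. Foxp2 at 1.64 ± 0.259 and Hnf4a at 1.35 ± 0.690 CPM per kb also overlapped, and Sox2 was last at 0.448 ± 0.264 CPM per kb. The lengths are unions of all annotated exons, so the long unions of Foxp1 and Foxp2 lower their values per kb.

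Hnf4a (chromosome 2, 163506808 to 163572910, plus strand, whole gene in GENCODE) had 195, 3.81 and 1.65 CPM in Lkb1-deleted replicates 1 to 3. It had 145, 41.6 and 94.0 CPM in sgSik1 and 110 and 165 CPM in sgSik1-3 libraries, against 5.98, 2.38, 10.4 and 7.22 CPM in KT. Every Sik-targeted library was above every KT library, whereas the Lkb1-deleted group had 1 library far above KT and the other two within or below its range. The mean was 111 ± 48.1 CPM in Sik-targeted (n = 5) and 6.50 ± 3.33 CPM in KT (n = 4), with SD. Hnf4a rose by 4.09 on the log2 scale with Sik targeting (SE 1.10, 17.1-fold, adjusted p 0.0283 by edgeR's quasi-likelihood test with Benjamini-Hochberg adjustment over all tested genes). The adjusted p was 0.0639 to 0.0975 when KT replicate 1, 2, 3 or 4 or sgSik1 replicate 1 was left out, 0.0537 without sgSik1-3 replicate 2 and 0.244 without KT replicates 2 and 3, with changes of 3.79 to 4.43 throughout.

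In Lkb1-deleted cells the change of Hnf4a against KT was 3.36 (SE 1.12, adjusted p 0.186), a value that rests on replicate 1. Without that library the change was -1.19 (adjusted p 0.424). Against the Sik-targeted libraries Hnf4a in Lkb1-deleted cells changed by -0.73 (SE 1.03, adjusted p 0.818). Leaving out Lkb1-deleted replicate 1 gave -5.31 (adjusted p 0.00126). That library also differed in markers of other cells: the 10 endothelial markers summed to 1.58 CPM in replicate 1, 236 CPM in replicate 2 and 89.1 CPM in replicate 3. The 12 fibroblast and smooth muscle markers summed to 4.86, 424 and 88.7 CPM in the same libraries. The part of these cells in the spread of Hnf4a was not tested. In a bulk library, fewer cells with a transcript and less transcript per cell cannot be told apart.

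Set against Nkx2-1 in the same library and per kilobase, Hnf4a stood at 63.5%, 1.30% and 0.293% in Lkb1-deleted replicates 1 to 3. The share was 20.8%, 7.60% and 40.5% for sgSik1 and 31.8% and 59.6% for sgSik1-3, against 2.05%, 0.556%, 2.54% and 1.83% in KT. In 6 of the 12 libraries Hnf4a was at 7.60% of Nkx2-1 or more. An RNA overlapping Hnf4a on the other strand, 0610008F07Rik, had at most 5 counts in any library, and the strand setting of the counting is not given in the sources used here.

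**Figure D2:**
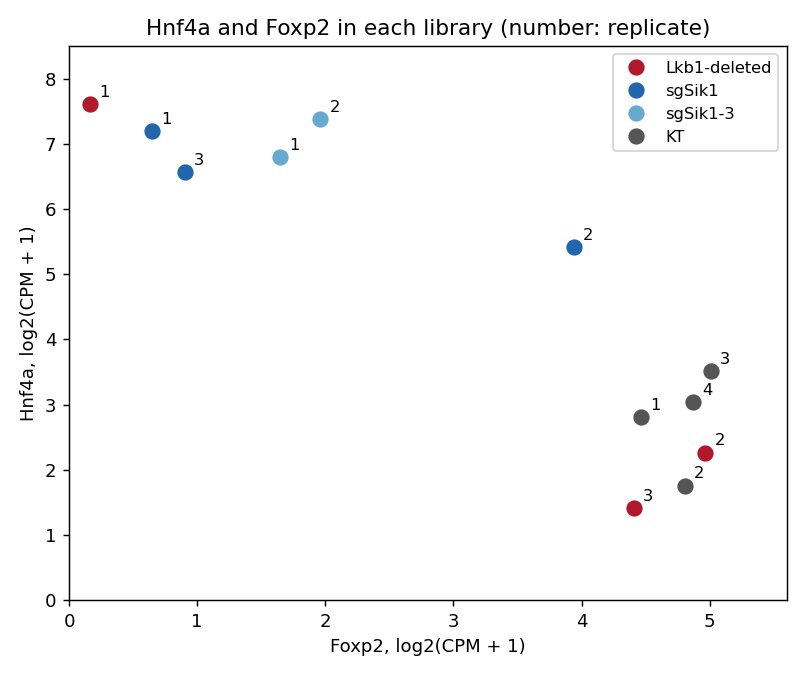
Hnf4a against Foxp2 in each library, both as log2(CPM + 1), coloured by title group and numbered by replicate. The KT libraries and Lkb1-deleted replicates 2 and 3 had high Foxp2 and low Hnf4a. Lkb1-deleted replicate 1 and 4 of the 5 Sik-targeted libraries had the opposite, and sgSik1 replicate 2 lay between with 14.4 CPM of Foxp2 and 41.6 CPM of Hnf4a.

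Foxp1 (chromosome 6, 98925338 to 99522721, minus strand) had 469, 188 and 231 CPM in Lkb1-deleted replicates 1 to 3. It had 649, 352 and 350 CPM in sgSik1 and 741 and 552 CPM in sgSik1-3 libraries, against 121, 130, 122 and 204 CPM in KT. All Sik-targeted libraries were above all KT libraries, and the Lkb1-deleted libraries overlapped both. Foxp1 rose by 1.88 with Sik targeting (log2, SE 0.37, 3.67-fold, edgeR adjusted p 0.0069), with 529 ± 175 CPM (n = 5) against 144 ± 39.9 CPM in KT (n = 4). In 19 of 20 alternative analyses the call stood, and without KT replicates 2 and 3 the change was 1.68 (adjusted p 0.144). In Lkb1-deleted cells the change against KT was 1.04 (SE 0.40, adjusted p 0.254).

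Foxp2 (chromosome 6, 14901349 to 15441977, plus strand), a close relative that pairs with Foxp1 protein, had 0.121, 30.2 and 20.2 CPM in Lkb1-deleted replicates 1 to 3. It had 0.568, 14.4 and 0.873 CPM in sgSik1 and 2.13 and 2.90 CPM in sgSik1-3 libraries, against 21.1, 27.0, 31.2 and 28.2 CPM in KT. Each Sik-targeted library was below each KT library, and Lkb1-deleted replicate 1, with 1 count, was the lowest of all 12. The log2 change with Sik targeting was -2.66 (SE 0.96, adjusted p 0.0847), from 4.17 ± 5.78 CPM (n = 5) against 26.9 ± 4.23 CPM in KT (n = 4). It passed in 6 of 20 alternatives: with limma-voom (-3.66, adjusted p 0.0495), with only the compared groups fitted (-2.69, adjusted p 0.0193), without a low-count filter (-2.66, adjusted p 2.2e-08), without Lkb1-deleted replicate 1 (-2.63, adjusted p 0.0123), without that library and sgSik1 replicate 1 (-2.42, adjusted p 0.0348) and without sgSik1 replicate 2 (-4.07, adjusted p 0.0109). Without the filter the SE was 0.42 for Foxp2, where the main fit gave 0.96, and close to the 0.39 of the steadier Nkx2-1. That p therefore did not reflect the spread of Foxp2 between libraries. With DESeq2 the change of Foxp2 with Sik targeting was -2.71 (adjusted p 0.0671). In Lkb1-deleted cells the change was -0.67 (SE 1.05, adjusted p 0.853). It was -0.0743 without Lkb1-deleted replicate 1, -1.41 without replicate 2 and -2.55 with limma-voom, none of which passed.

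Nkx2-1 (chromosome 12, 56531958 to 56536908, minus strand) had 180, 173 and 332 CPM in Lkb1-deleted replicates 1 to 3. It had 410, 322 and 137 CPM in sgSik1 and 203 and 163 CPM in sgSik1-3 libraries, against 172, 252, 242 and 233 CPM in KT. The groups overlapped throughout, and the highest and the lowest library were both sgSik1. The change was 0.02 with Lkb1 deletion (SE 0.40, 95% interval -0.83 to 0.88) and 0.14 with Sik targeting (SE 0.35, interval -0.62 to 0.89), with edgeR adjusted p 0.99 and 0.848. Both intervals include 0. The transcript overlaps an annotated antisense gene, whose reads cannot be told apart without a strand setting.

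Foxa1 (chromosome 12, 57540628 to 57546916, minus strand), a pioneer factor that opens closed chromatin, had 32.1, 27.7 and 28.5 CPM in Lkb1-deleted replicates. It had 86.1, 33.2 and 24.3 CPM in sgSik1 and 36.6 and 35.8 CPM in sgSik1-3 libraries, against 23.0, 16.3, 14.0 and 21.0 CPM in KT. All 8 libraries with an altered gene were above all 4 KT libraries. Foxa1 rose by 1.22 with Sik targeting (SE 0.36, 2.32-fold, adjusted p 0.0393), with 43.2 ± 24.5 CPM (n = 5) against 18.6 ± 4.15 CPM in KT. The change with Lkb1 deletion was 0.67 (SE 0.40, adjusted p 0.515). Without sgSik1 replicate 1, which was the highest, the Sik change was 0.80 (adjusted p 0.0479). It did not pass when KT replicate 1, 2, 3 or 4 or sgSik1-3 replicate 1 or 2 was left out (adjusted p 0.0556 to 0.137), with only the compared groups fitted (0.0550) or without KT replicates 2 and 3 (0.94, adjusted p 0.373).

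Foxa2 (chromosome 2, 148042877 to 148046969, minus strand), the partner of Foxa1 in lung and gut endoderm, had 27.6, 7.51 and 14.3 CPM in Lkb1-deleted replicates. It had 54.0, 17.4 and 14.7 CPM in sgSik1 and 15.4 and 15.7 CPM in sgSik1-3 libraries, against 16.7, 8.64, 8.67 and 9.97 CPM in KT. KT replicate 1 overlapped the Sik-targeted range, and the change with Sik targeting was 1.09 (SE 0.48, adjusted p 0.147). In Lkb1-deleted cells it was 0.59 (SE 0.53, adjusted p 0.706).

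Gata6, a zinc-finger factor of lung and foregut endoderm, had 30.0, 40.7 and 36.7 CPM in Lkb1-deleted replicates. It had 94.9, 37.3 and 43.2 CPM in sgSik1 and 34.7 and 35.3 CPM in sgSik1-3 libraries, against 24.7, 39.2, 28.2 and 42.0 CPM in KT. Apart from sgSik1 replicate 1 the libraries lay within a narrow range. The change was 0.10 with Lkb1 deletion (SE 0.38, adjusted p 0.949) and 0.55 with Sik targeting (SE 0.34, adjusted p 0.313).

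Cebpa (chromosome 7, 35119293 to 35121928, plus strand), a leucine zipper factor of alveolar maturation, had 66.9, 57.4 and 74.7 CPM in Lkb1-deleted replicates. It had 77.9, 49.8 and 49.3 CPM in sgSik1 and 44.7 and 26.8 CPM in sgSik1-3 libraries, against 120, 49.1, 42.2 and 57.1 CPM in KT. The groups overlapped, with KT replicate 1 the highest and sgSik1-3 replicate 2 the lowest. The change was -0.01 with Lkb1 deletion (SE 0.40, adjusted p 0.993) and -0.43 with Sik targeting (SE 0.35, adjusted p 0.453).

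Sox2 (chromosome 3, 34650405 to 34652461, plus strand) had 0 counts in all 3 Lkb1-deleted libraries. It had 1, 2 and 0 counts in sgSik1 and 0 in both sgSik1-3 libraries, against 11, 8, 9 and 3 counts in KT. Of its 34 counts, 31 were in KT, and in Lkb1-deleted cells it was at least 6.54-fold lower than in KT at a floor of 3 counts over the group. In Sik-targeted cells the ratio to KT was 10.8-fold lower, with a 95% interval of 3.37 to 55.2. Both cover counting error only, and Sox2 was not tested in the fit by genotype. The club and ciliated markers were higher in the same KT libraries, as given above, and their part was not tested. Sox2ot, an RNA that contains Sox2 in an intron, had 1, 5, 9 and 0 counts in KT replicates 1 to 4 and none in other libraries. KT replicates 2 and 3, which hold most of the Sox2ot counts and 8 and 9 of those of Sox2, are the libraries that stood apart in genes detected.

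**Figure D3:**
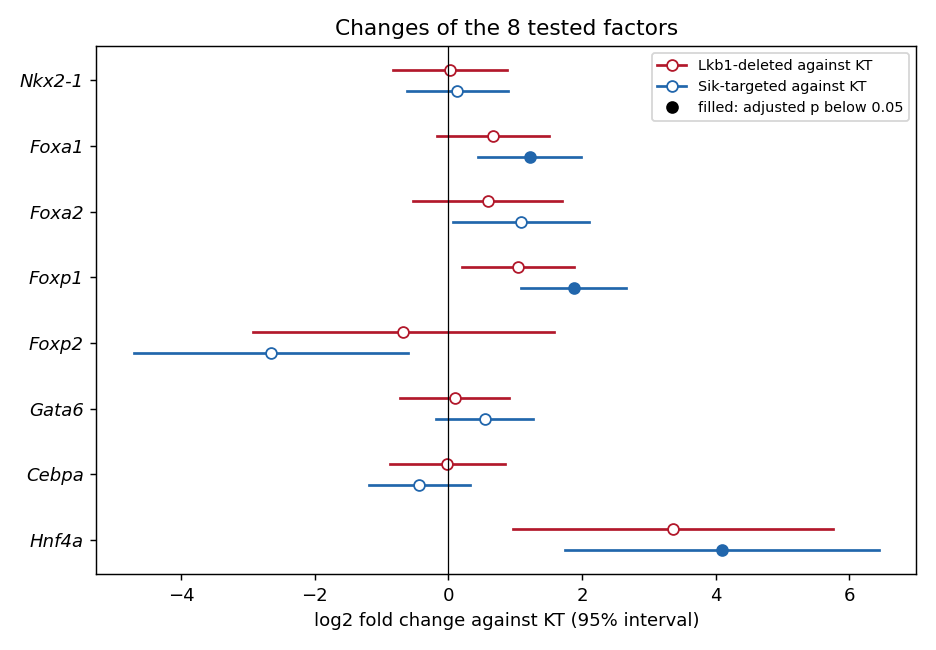
Log2 fold change of the 8 tested factors against KT, with 95% intervals, for Lkb1-deleted and Sik-targeted libraries. Filled points have an adjusted p below 0.05: Foxa1 at 1.22, Foxp1 at 1.88 and Hnf4a at 4.09 with Sik targeting.

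With Lkb1 deletion 0 of 8 tested members passed the adjusted threshold of 0.05 in edgeR's test, where 1.16% of all 13575 tested genes did. At an unadjusted p under 0.05 there were 2 of 8 (Foxp1 and Hnf4a), where 1782 of the 13575 genes were, and DESeq2 and limma-voom also called 0. In 1 of 8 (Foxa1) the groups did not overlap, against 14.7% of all tested genes. With Sik targeting 3 of 8 passed, all higher, where 12.4% of all genes passed, and in 4 of 8 the groups did not overlap, against 16.1%. At an unadjusted p under 0.05 there were 5 of 8, where 3867 of the 13575 genes were. The median log2 change of the 8 was 0.34 with Lkb1 deletion and 0.82 with Sik targeting, where the medians over all tested genes were -0.04 and -0.03. Both comparisons share the KT libraries. Setting Lkb1-deleted directly against Sik-targeted cells, 0 of 8 passed (0.221% of all genes) and 0 of 8 did not overlap (5.38%). There 1 of 8, Foxp1, had an unadjusted p under 0.05 (-0.84, SE 0.39, adjusted p 0.393), where 1723 of the 13575 genes did. Between sgSik1-3 and sgSik1, 0 of 9 passed, as did 0% of 15303 genes, of which 528 had an unadjusted p under 0.05. Gata6 and Cebpa were lower in both sgSik1-3 libraries than in all sgSik1 libraries, which was so, in either direction, for 14.9% of genes. Their changes were -0.74 (SE 0.45) and -0.73 (SE 0.48), both with adjusted p 1, and DESeq2 and limma-voom also called 0 members there.

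Genes of the pathways around the members were counted from lists chosen with earlier results of these data known. Beside each list, 12.4% of all 13575 tested genes passed with Sik targeting and 1.16% with Lkb1 deletion, in either direction. Of 17 tested lung genes that Nkx2-1 binds or activates, 7 fell and 0 rose with Sik targeting (median change -1.12), and 1 fell and 0 rose with Lkb1 deletion (median -0.73). The 4 with the smallest p in Sik-targeted cells were the club cell secretoglobin Scgb1a1 (-5.36, adjusted p 0.00346), the lung chemokine Cxcl15 (-3.43, adjusted p 0.0046), the surfactant lipid enzyme Lpcat1 (-2.16, adjusted p 0.00789) and the lamellar body protein Lamp3 (-2.70, adjusted p 0.00906). Scgb1a1 was also the one that fell with Lkb1 deletion (-6.34, adjusted p 0.0273), and it is a marker of club cells. Other genes of the list did not follow: Sftpb, a surfactant protein, changed by 1.05 (adjusted p 0.202) and Napsa, the protease that processes it, by -0.39 (adjusted p 0.701) with Sik targeting. The count of 7 was 4 without KT replicate 1 or without sgSik1 replicate 1, and 3 without KT replicates 2 and 3.

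Of 18 tested gastric, gut and liver genes of the Hnf4a programme, 7 rose and 0 fell with Sik targeting, with a median change of 2.57. The named members were Tff1, a gastric mucosal peptide (9.19, adjusted p 0.0069), Ctse, a gastric protease (4.49, adjusted p 0.0138), Lgals4, a gut galectin (4.10, adjusted p 0.0022) and Vil1, the brush border protein villin (4.16, adjusted p 0.00469). Liver genes of the list did not pass, among them Apob (0.45, adjusted p 0.796) and Alb (-2.12, adjusted p 0.13). In Lkb1-deleted cells 0 of 18 passed, where 1.16% of all tested genes did, with a median of 1.11. Psca, a surface protein of stomach and bladder, was lower in Lkb1-deleted than in Sik-targeted cells (-4.04, adjusted p 0.0288). It was the 1 of 18 that passed there, where 0.221% of all tested genes did. The count of 7 was 4 without KT replicate 1, 2, 3 or 4, and 0 without KT replicates 2 and 3.

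Within the Lkb1-deleted group Ctse and Tff1, chosen after their values were seen, were high in the library with high Hnf4a. Ctse had 794, 16.2 and 28.7 CPM in Lkb1-deleted replicates 1 to 3, 348 to 1282 CPM in Sik-targeted libraries and 13.2 to 55.4 CPM in KT. Tff1 had 447, 0.514 and 3.67 CPM in the same Lkb1-deleted replicates, and 0.315 to 1.91 CPM in KT. The surfactant protein gene Sftpc had 537 CPM in Lkb1-deleted replicate 1, and 19255 and 18746 CPM in replicates 2 and 3. Ctse and Tff1 made up most of the summed gastric, gut and liver list in replicate 1. The sum stood at 1570, 78.4 and 142 CPM in Lkb1-deleted replicates, at 661 to 2807 CPM in Sik-targeted and at 138 to 217 CPM in KT libraries. The lung list summed to 17840.5, 42704 and 41277 CPM in Lkb1-deleted replicates, 12269 to 37391 CPM in Sik-targeted and 26419 to 94371 CPM in KT.

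**Figure D4:**
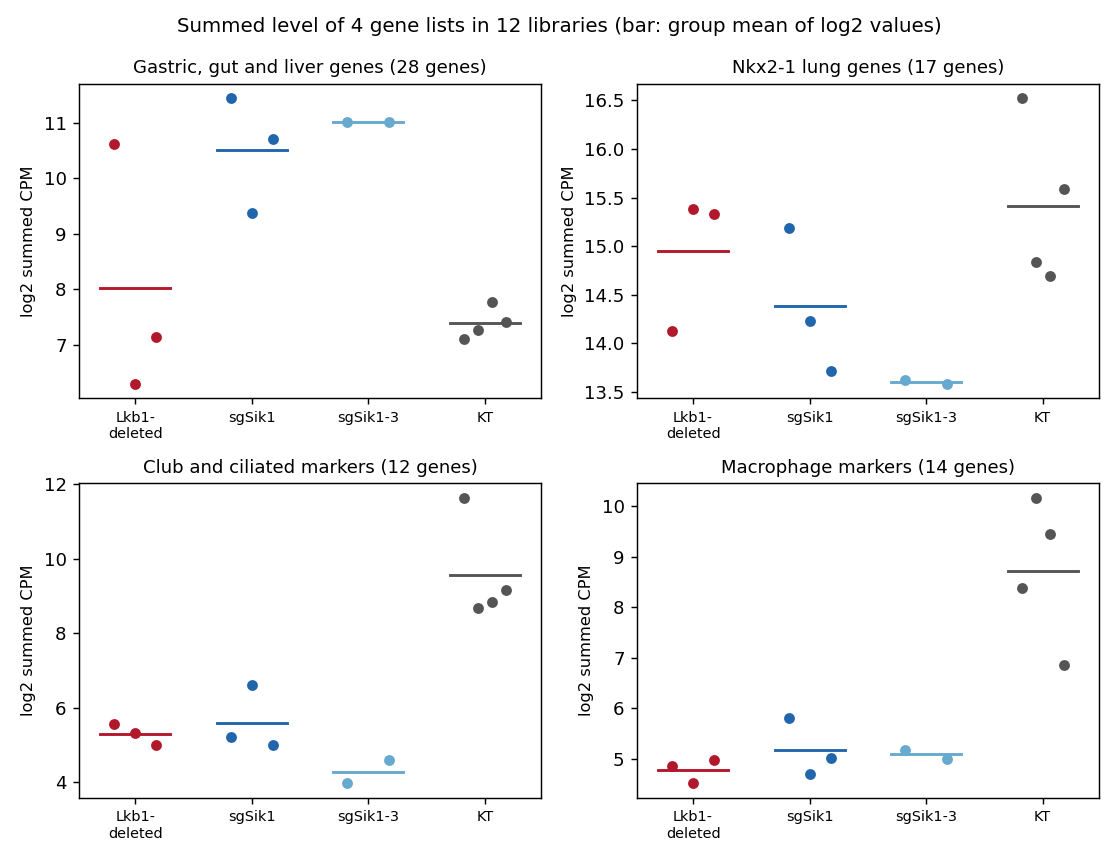
Summed CPM on a log2 scale of 4 gene lists in each library, by title group, with bars at group means of the log2 values. The gastric, gut and liver list was at 661 CPM or more in all Sik-targeted libraries and in Lkb1-deleted replicate 1, and at 217 CPM or less elsewhere. Club, ciliated and macrophage markers were highest in KT.

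Of the 21 close paralogs of the members, 7 passed the low-count filter. Gata5, a gut relative of Gata6, rose with Sik targeting (5.58, SE 1.59, adjusted p 0.0366) and no other paralog passed in either comparison with KT. It had 58.0, 0.412 and 0 CPM in Lkb1-deleted replicates 1 to 3. The levels were 96.1, 2.42 and 19.9 CPM in sgSik1 and 20.6 and 19.4 CPM in sgSik1-3 libraries, against 0.157, 0.298, 0.562 and 1.91 CPM in KT. The call was lost without any 1 of the KT libraries, sgSik1 replicate 1 or 3, or sgSik1-3 replicate 1 or 2. Foxp4, the third lung Foxp gene, changed by 0.42 with Sik targeting (adjusted p 0.594), and Foxa3 by 1.65 (adjusted p 0.187). Hnf4g had no counts outside KT replicates 2 and 3.

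Of 27 tested other lung epithelial transcription factors, 6 rose and 3 fell with Sik targeting, and 1 rose with Lkb1 deletion. Klf5, a Kruppel-like factor of gut and airway epithelium, rose in both, by 1.63 with Sik targeting (adjusted p 0.005) and by 1.47 with Lkb1 deletion (adjusted p 0.0432). Sox9, a factor of the distal embryonic lung, rose by 4.89 (adjusted p 0.00652) with Sik targeting. Etv5, which maintains alveolar type II cells, fell by 2.11 (adjusted p 0.00351), and Foxj1, the master factor of ciliated cells and itself a ciliated marker, fell by 4.00 (adjusted p 0.00848). Of the 6 tested basal and squamous genes 3 rose with Sik targeting, the stress-responsive Sfn and Sprr1a and the keratin gene Krt14, and 1 with Lkb1 deletion, Sfn (3.92, adjusted p 0.032). Trp63, which defines basal cells, changed by -1.94 with Sik targeting (adjusted p 0.221). The count of 6 risen factors was 1 without KT replicates 2 and 3, and the 3 that fell were 6 without sgSik1 replicate 2. The 3 basal and squamous genes were 1 without KT replicate 1 or 3 or sgSik1 replicate 1.

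Among 12121 tested genes, those whose pattern over the 12 libraries was nearest to each member were found by the root-mean-square distance of median-centred log2 CPM. For Hnf4a they were Ctse, at a distance of 0.752, and Degs2, at 0.772, where Hnf4a itself varied by 2.44 about its median. For Foxp2 they were Sgce (0.446) and Phactr1 (0.608), where Foxp2 varied by 2.63. For Foxp1 they were Gapdh (0.202) and Lasp1, and for Foxa1 Samd4b (0.175) and Cfl1. Gapdh averaged 1452 CPM in Sik-targeted and 346 CPM in KT libraries, and Lasp1 288 and 77.2 CPM. Samd4b averaged 88.0 and 36.1 CPM in the same groups, and Cfl1 164 and 89.6 CPM. The nearest to Nkx2-1 were Fbxo21 and Dnajc11, to Foxa2 Arhgef16 and Snrpa, to Gata6 Rab11b and Ncoa2, and to Cebpa Med22 and Ogfr. These libraries share their depth and composition, and nearness in this measure is a description.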

How the data were processed

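RNA from sorted mouse lung cancer cells was amplified and sequenced as read pairs, per the labels' protocols. The authors deposited raw counts per gene symbol, as the file header states, made with STAR 2.4.2a and HTSeq on mm10, per the submitters' processing notes. Which annotation and strand setting were used is not stated. The members and lists were chosen with earlier results of these data known.

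The tests used edgeR 4.0.16 (R 4.3.3) on these counts: TMM scaling, filterByExpr, a robust quasi-likelihood fit and 2-sided F tests, with Benjamini-Hochberg adjustment over all tested genes at 0.05. Comparisons with KT, and of Lkb1-deleted with Sik-targeted, came from 1 fit in 3 genotype groups, and sgSik1-3 against sgSik1 from a fit in 4 title groups. The SE is the absolute change over the square root of F. DESeq2 1.42.0, limma 3.58.1 (voom), RLE scaling, no filter, fits of only the compared groups, a replicate block and left-out libraries were the alternatives. Lengths came from GENCODE exon unions and promoters from RefSeq, both on GRCm38. Totals were 3847760 to 13955181 counts, and 3 counts was the floor. Replicate numbers were not taken as pairs. No 2 libraries of the same title group were duplicates, and pairs across groups were not checked for this. By rule the named genes were the members, up to 4 called genes of each list with the smallest p, and the 2 nearest tested genes of each member with a mean of at least 5 CPM. Apart from the targets, other genes (such as Sftpb, Sftpc, Napsa, Apob, Alb, Trp63, Foxp4, Foxa3, Hnf4g, Tyrobp and Bpifa1) were chosen after their values were seen.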

Additional observations from a re-analysis of the deposited data

Results flagged for a closer look

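Of 18 groups of libraries tested (9 members in the Sik-targeted and in the KT libraries), 7 had a library whose gap to the others was large for the group's range. The cut-off gives about 1 in 20 only for independent values with a normal spread. The members share the same libraries, so 7 of 18 cannot be set against that rate. In the Sik-targeted libraries, sgSik1 replicate 1 stood above the other four for Foxa1 (86.1 CPM, the next at 36.6), Foxa2 (54.0 CPM, the next at 17.4) and Gata6 (94.9 CPM, the next at 43.2). In this library 4 transcripts took 74.2% of the counts. Its scaled size, which divides the counts to give CPM, was 3518450, where its total was 8941240. The part of both in these values was not tested. Foxp2 in sgSik1 replicate 2 was at 14.4 CPM, with the next at 2.90. In KT libraries, replicate 1 stood above the others for Foxa2 (16.7 CPM, the next at 9.97) and Sox2 (1.73 CPM, the next at 0.723). KT replicate 4 stood above the others for Foxp1, at 204 CPM with the next at 130.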

How the results depend on the processing

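Across 20 alternatives, 600 of 655 values kept direction and side of the threshold, 18 lost a call, 10 gained one and 27 changed sign. Most of these values belong to changes that were not called and so had no call to lose. All 18 lost calls fell on the 3 called changes with Sik targeting: Foxa1 in 9 of 20 alternatives, Hnf4a in 8 of 20 and Foxp1 in 1 of 20. The 3 calls with Sik targeting became 0 without KT replicates 2 and 3, 1 with the replicate block and 1 to 4 with 1 library left out. Of the 0 calls with Lkb1 deletion, 1 appeared without a low-count filter: Hnf4a, with an SE of 0.44 where the main fit gave 1.12. Lkb1-deleted against Sik-targeted cells had 1 call without the filter, 1 without Lkb1-deleted replicate 1 and sgSik1 replicate 1 (chosen after seeing the data), and 0 to 1 with 1 library left out. The call without the filter was Foxp2, with an SE of 0.44 where the main fit gave 1.00. The cause was not tested. Same-numbered libraries of different groups had a median r of 0.064 (-0.335 to 0.249) in their deviations from group means. For differently numbered libraries it was -0.042 (-0.256 to 0.335). With 2 libraries in sgSik1-3, their deviations mirror each other by construction, so these r values cannot settle whether the numbers mark pairs. The block, in which Foxp1 alone passed, rests on shared numbers only. Over all genes the calls were 158 (3 to 846 across alternatives), 1679 (98 to 3654), 30 (0 to 902) and 0 (0 to 44) in the 4 comparisons.

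Sign changes were these. Cebpa with Lkb1 deletion was 0.00695 with DESeq2, 0.00681 with RLE, 0.11 with limma-voom, 0.0438 with the replicate block, and -0.20 to 0.41 with 1 library left out. Nkx2-1 with Lkb1 deletion was -0.0284 with limma-voom and -0.33 to 0.20 with 1 library left out. Leaving out 1 library, Nkx2-1 with Sik targeting was -0.14 to 0.29, Gata6 with Lkb1 deletion -0.0339 to 0.22, Foxa2 with Lkb1 deletion -0.00221 to 0.95 and Hnf4a with Lkb1 deletion -1.19 to 3.95. Between Lkb1-deleted and Sik-targeted cells the ranges were -0.49 to 0.16 for Nkx2-1 and -1.10 to 0.0623 for Foxa2. Between sgSik1-3 and sgSik1 they were -0.72 to 0.36 for Foxa1 and -1.62 to 1.68 for Foxp2, which was 0.45 with limma-voom. Without both Lkb1-deleted replicate 1 and sgSik1 replicate 1, Foxa2 and Hnf4a with Lkb1 deletion were -0.00819 and -1.19, and Nkx2-1 with Sik targeting was -0.13. In that setting Nkx2-1 and Gata6 between Lkb1-deleted and Sik-targeted cells were 0.29 and 0.041, and Foxa1 between sgSik1-3 and sgSik1 was 0.37.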
